A study of Homo sapiens with 6 samples.

Results

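The cytosolic ribosomal protein genes were chosen by name and biotype alone: protein-coding genes whose symbol is RPL or RPS followed by a number, with or without the endings A, X or L, together with RPLP0, RPLP1, RPLP2 and RPSA. This rule used no measured value and took 83 of the 22681 genes of the count table. Of these, 51 encode proteins of the large subunit and 32 proteins of the small subunit. The large-subunit genes include RPL3L, RPL7L1, RPL22L1, RPL26L1 and RPL39L and the small-subunit genes include RPS27L, 6 genes whose L suffix marks a copy of another member.

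RNA was sequenced from TPC-1-Len, a lenvatinib-resistant derivative of TPC-1, an established human papillary thyroid carcinoma line. All cultures were kept in 10 µM lenvatinib, an inhibitor of several receptor tyrosine kinases. Liposomes delivered either a non-targeting short hairpin RNA (shNC, n = 3) or a hairpin against the keratin gene KRT15 (shKRT15, n = 3). The labels call the cultures biological replicates but do not say whether each was transfected on its own, and they give no time of harvest. The p-values therefore reflect how much these 6 cultures of 1 resistant line varied, which may be technical.

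A cytosolic ribosome is built from 1 copy of nearly every ribosomal protein, joined to ribosomal RNA in the nucleolus, and proteins left without a partner are degraded. Most of the mRNAs carry a terminal oligopyrimidine tract, a C at the first base followed by a run of C and T, through which LARP1 and the kinase mTORC1 set how well they are translated. That control acts mainly on translation, which read counts do not measure. A few members have further roles: RPL5 and RPL11 bind MDM2 together with 5S rRNA when ribosome assembly is disturbed.

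The tract was searched in RefSeq promoter sequences (GRCh38.p14), which held 66 of the 83 genes. The motif was a C at the annotated start followed by at least 4 bases that were each C or T, read on the transcribed strand only, and a gene counted if any of its starts had it. It was found in 47 of the 66 genes (71.2%), against 6.5% of 12858 other protein-coding genes of the count table and 5.14% of all 27305 genes of the promoter table. Of genes with 1 annotated start, 41 of 55 members (74.5%) and 4.54% of the other protein-coding genes had it. The run was 5 to 19 bases long, with a median of 8. The windows below run from 10 bases before the start to 20 bases from it, and are those of some of the members named in the results. RPS2, RPL8 and RPL5 were not among the genes with promoter sequences, so no window is shown for them. Capitals mark the pyrimidine run that begins with C at the annotated start; the RPS15 window has only the single C, which is too short to count.
RPL35, chr9:124861938-124861967, minus strand: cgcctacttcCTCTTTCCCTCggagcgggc
RPSA, chr3:39406710-39406739, plus strand: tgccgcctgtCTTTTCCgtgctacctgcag
RPLP0, chr12:120201092-120201121, minus strand: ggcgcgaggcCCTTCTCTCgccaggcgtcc
RPS16, chr19:39435930-39435959, minus strand: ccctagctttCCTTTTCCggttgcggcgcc
RPL18, chr19:48619159-48619188, minus strand: agcccgttctCTCTTTCCggacctggccga
RPS15, chr19:1438386-1438415, plus strand: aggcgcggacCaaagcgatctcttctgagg
RPS26, chr12:56041908-56041937, plus strand: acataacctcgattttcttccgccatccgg
RPL4, chr15:66504836-66504865, minus strand: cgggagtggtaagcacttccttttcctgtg
RPL11, chr1:23691796-23691825, plus strand: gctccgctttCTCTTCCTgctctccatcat
RPS27L, chr15:63157458-63157487, minus strand: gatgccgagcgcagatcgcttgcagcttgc
RPS27, chr1:153990752-153990781, plus strand: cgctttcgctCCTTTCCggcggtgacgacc
RPL22, chr1:6199576-6199605, minus strand: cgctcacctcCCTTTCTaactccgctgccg
RPL22L1, chr3:170870176-170870205, minus strand: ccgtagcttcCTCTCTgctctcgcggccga
RPL26, chr17:8383174-8383203, minus strand: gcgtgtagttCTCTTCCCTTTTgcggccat
RPL26L1, chr5:172958719-172958748, plus strand: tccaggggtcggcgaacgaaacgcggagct
In the RPS26 and RPL4 windows a pyrimidine run lies a few bases inside the annotated start, so these letters depend on where the annotation places it. RPL11 and RPL26L1 have 2 annotated starts each. The RPL11 window shown is of the start with the motif, and neither RPL26L1 start has it.

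Total reads were 36286059 to 36808695 in the shNC libraries and 39868231 to 41343780 in the shKRT15 libraries. Levels are in CPM, the reads of a gene brought to a common library size by TMM scaling. Mitochondrially encoded mRNAs took 5.09% ± 0.129 of reads in shNC and 5.71% ± 0.843 in shKRT15 (SD, n = 3 each). KRT15, the targeted gene, stood at 28.7, 31.9 and 36.2 CPM in shNC and at 25.0, 24.3 and 24.9 CPM in shKRT15, and fell by 0.38 ± 0.10 (SE) on the log2 scale (edgeR quasi-likelihood test, adjusted p = 0.00465), a modest reduction with groups that did not overlap. Of the labelled thyroid epithelial origin, the transcription factor gene PAX8 was present (mean 375 CPM in shNC and 410 in shKRT15). FOXE1 stood at 14.6 and 15.3 CPM, HHEX at 8.64 and 7.85 and TG at 1.58 and 0.808. TSHR and NKX2-1 were at 0.00941 CPM each in shNC and 0 in shKRT15, and EPCAM and CDH1 were under 0.05 CPM in both. Of the other epithelial markers, KRT18 stood at 116 CPM in shNC and 215 in shKRT15, KRT8 at 12.9 and 14.9 and KRT7 at 23.4 and 22.9, so that the sum of the 5 epithelial markers was 147 to 161 against 248 to 259 CPM. The summed level of 6 fibroblast markers was 21.9 to 26.3 CPM in shNC and 8.31 to 9.72 in shKRT15, with COL1A2 and DCN near 0 in both groups. That of the 5 measured leukocyte markers was 119 to 121 against 105 to 117 CPM, nearly all of it LAPTM5, with PTPRC at 0.40 CPM in shNC and 0 in shKRT15. Their part in the results below was not tested.

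Ribosomal protein genes as a group changed little with the KRT15 hairpin, and a minority of single members rose. Of the 83 genes, 80 passed the filter on low counts. In the edgeR test, 11 of them rose in shKRT15 and 2 fell at an adjusted p under 0.05, and 67 were not called. Among all 14356 genes tested, 22.1% were called higher and 23% lower (45% in either direction), so the members' shares of 13.8% and 2.5% lay below the background in both directions in this fit. Every shKRT15 library was above every shNC library in 15 members and below in 3, against a background of 26.9% and 27.1%, and the groups overlapped in 62. The median log2 fold change of the 80 genes was 0.025, beside -0.0013 over all genes tested, with 50 members above 0 and 30 below. In bulk RNA, fewer cells of a type and less RNA per cell cannot be told apart.

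The rises outnumbered the falls under every scaling tried, but how many members were called, and whether their share of rises lay below that of all genes, depended on the fit. With total counts in place of TMM, 21 members (26.2%) were called higher, beside 26.1% of all genes tested, and 0 lower, and the median over all genes tested moved to 0.059. With each library's trend with transcript GC content and length removed, 33 (41.2%) were called higher, beside 26.4% of all genes, and 2 lower. Without shNC replicate 3, 31 (38.8%) were called higher, beside 22.4%, and 0 lower. With both the trend removed and that library left out, a fit chosen after seeing the data, 44 (55%) were called higher, beside 26.9%, and 0 lower. In the last 3 of these fits the members' share of rises lay above the background, the reverse of the fit with all libraries and no correction. Without shNC replicate 1, 7 members (8.75%) were called higher, beside 19.8%, and 7 lower; without shNC replicate 2, 7 and 1. Without shKRT15 replicates 1, 2 and 3, the counts were 9 and 0, 11 and 1, and 7 and 0. Of all genes tested in those fits, 17.4%, 20.8% and 17.8% were called higher and 18%, 21.6% and 18.9% lower. Throughout all 18 alternative fits, 7 genes stayed called higher, among them RPL35, RPS2, RPSA, RPS26, RPLP0 and RPS16. Neither of the 2 falls was called in all of them.

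**Figure D1:**
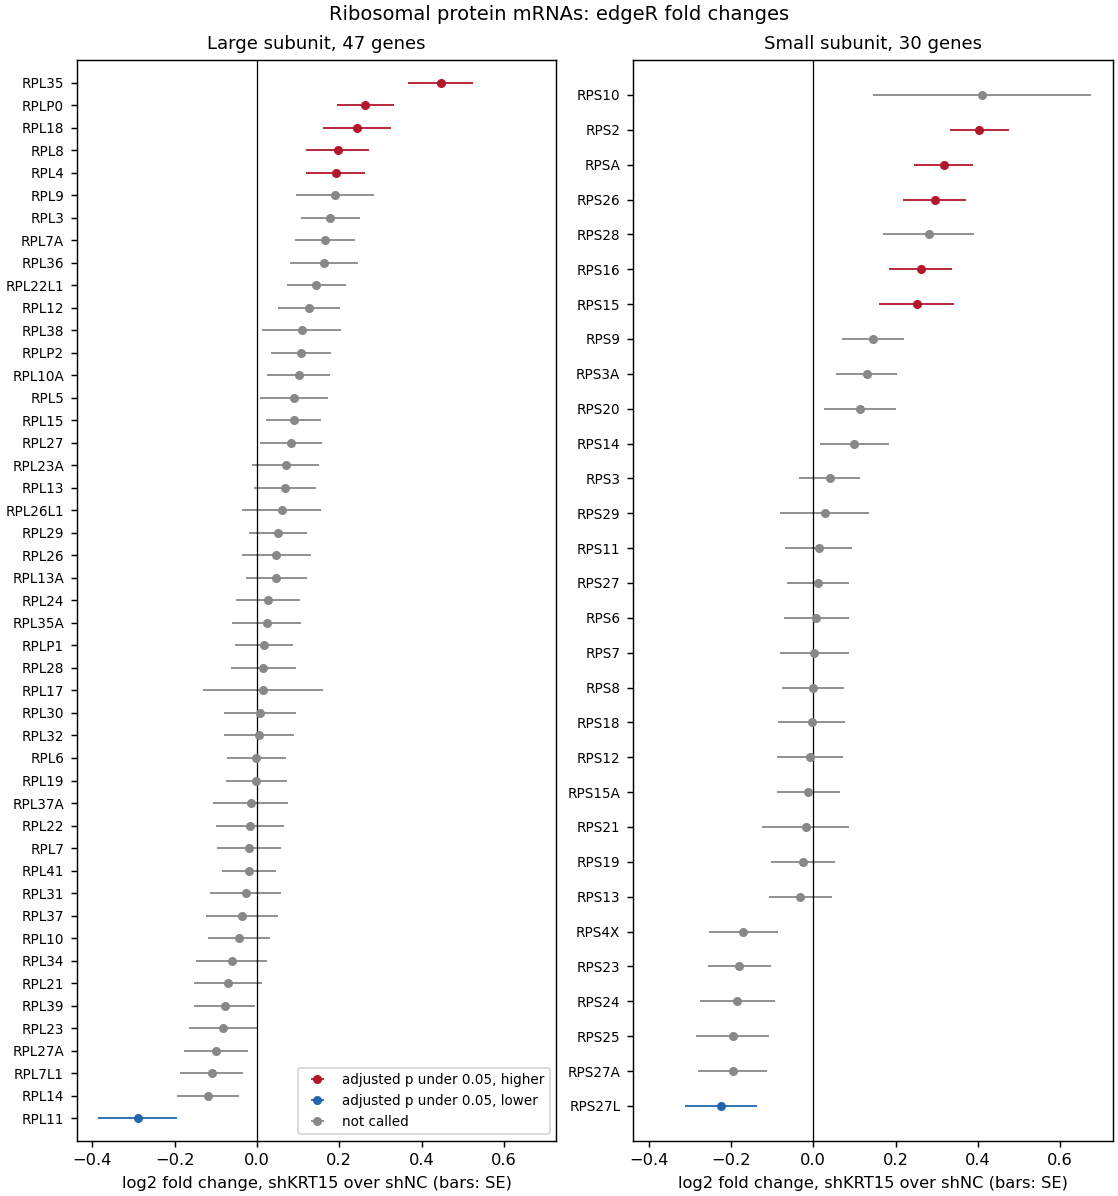
Log2 fold change (shKRT15 over shNC, with SE bars) of 77 of the 80 tested ribosomal protein genes, ordered by value within the large and the small subunit. Most values lie close to 0; RPL35 is highest at 0.45 and RPL11 lowest at -0.29.

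The range within the control group exceeded the difference between the group means. Members took 6.44%, 6.77% and 7.75% of all reads in shNC replicates 1, 2 and 3, and 7.49%, 7.90% and 7.53% in shKRT15 replicates 1, 2 and 3. The means were 6.99% ± 0.683 and 7.64% ± 0.222 (SD, n = 3 each), and the groups overlapped because shNC replicate 3 lay above 2 of the 3 shKRT15 libraries. This library held the highest control value in 79 of the 80 tested members, the exception being RPL7L1. Relative to each gene's shNC mean, the members' median was -0.126, -0.038 and 0.164 on the log2 scale in the shNC libraries and 0.014, 0.072 and 0.043 in the shKRT15 libraries. The excess in shNC replicate 3 over the mean of the other two controls had a median of 0.245 (log2) over the members, 0.138 over 314 other genes of at least 100 CPM with a coding sequence under 600 bases, and -0.026 over 1654 such genes with a longer one. The members' coding sequences run from 75 to 1281 bases with a median of 453. Whether RNA or library quality plays a part in that library's profile was not tested.

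**Figure D2:**
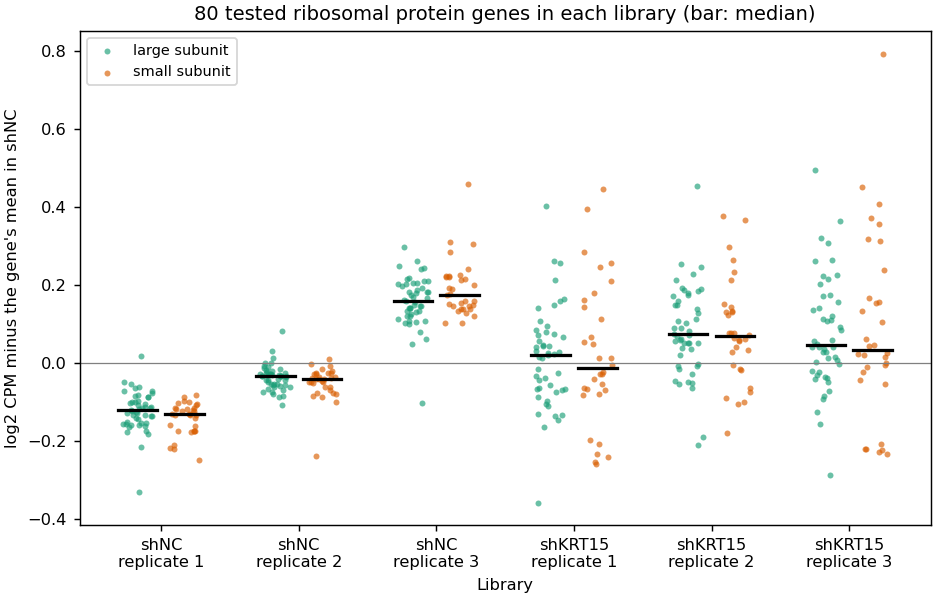
Level of each of the 80 tested members in each library, as log2 CPM minus the gene's mean in shNC, with bars at the median of each subunit. Members of both subunits sit together high in shNC replicate 3, above the shKRT15 libraries in median, and low in shNC replicate 1.

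Counts of called genes and medians lay close together in the large and the small subunit, and their difference was not tested. Of 48 tested large-subunit genes 6 rose (12.5%) and 1 fell (2.08%), with a median log2 fold change of 0.037 and a range of -0.29 to 0.45. Of 32 tested small-subunit genes 5 rose (15.6%) and 1 fell (3.12%), with a median of 0.013 and a range of -0.22 to 0.41. The ratio of large-subunit to small-subunit reads was 1.603, 1.591 and 1.563 in shNC and 1.589, 1.579 and 1.6002 in shKRT15. These values interleave, so the balance between the subunits did not separate the groups. Of the 78 genes of the mitochondrial ribosome, which is built from a separate set of proteins, 77 were tested. Of these, 17 rose (22.1%) and 7 fell (9.09%), with a median of 0.077. Among all genes tested, 22.1% were called higher and 23% lower.

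In the large subunit the highest rise was in RPL35, a protein beside the exit of the nascent peptide tunnel (chromosome 9, 124857880 to 124861981, minus strand, GENCODE release 29 on GRCh38). Its level was 635.9, 677.4 and 791.1 CPM in shNC and 924.3, 957.5 and 985.6 CPM in shKRT15. The groups were well apart, and the log2 fold change was 0.45 ± 0.080 (SE; adjusted p = 0.000211). RPL18 was at 460.6, 502.8 and 582.4 CPM against 594.5, 594.3 and 640.5 CPM, a change of 0.24 ± 0.082 (adjusted p = 0.0226). In both of these genes the shNC library closest to the shKRT15 group was replicate 3.

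RPL8 and RPL4 had smaller rises and calls that depended on the fit. RPL8, which lies near the peptidyl transferase centre, was at 1996.8, 2105.7 and 2347.8 CPM in shNC and 2377.8, 2439.0 and 2571.7 CPM in shKRT15, a change of 0.20 ± 0.076 (adjusted p = 0.0432). RPL4, whose extension lines the peptide tunnel, was at 1640.8, 1689.4 and 1849.3 CPM against 1931.0, 1964.1 and 2018.0 CPM, a change of 0.19 ± 0.071 (adjusted p = 0.0355), or of 0.33 with the trend removed and shNC replicate 3 left out. In both, the lowest shKRT15 library was just above shNC replicate 3. RPL8 was not called in 6 of the 18 alternative fits, RPL4 in 4 and RPL18 in 3. RPL3, RPL7A, RPL15 and the copy RPL22L1 also had all shKRT15 libraries above all shNC libraries without passing the threshold, with log2 fold changes of 0.18, 0.17, 0.09 and 0.14 (adjusted p = 0.0505, 0.0726, 0.298 and 0.115).

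RPLP0 rose while both proteins it anchors did not pass the test. RPLP0 forms the base of the stalk, the large-subunit arm that recruits translation factors, and holds dimers of RPLP1 and RPLP2. It was at 1759.1, 1864.2 and 1969.8 CPM in shNC and at 2225.9, 2183.6 and 2305.8 CPM in shKRT15, a log2 fold change of 0.26 ± 0.070 (adjusted p = 0.00543). RPLP1 was at 1107, 1179 and 1277 CPM against 1209, 1179 and 1216 CPM (0.017 ± 0.071, adjusted p = 0.871). RPLP2 was at 399.5, 424.7 and 467.3 CPM against 450.2, 461.3 and 479.2 CPM (0.11 ± 0.073, adjusted p = 0.249). The values of both overlapped between the groups, and the difference between the stalk genes was not tested.

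In the small subunit the rises were led by RPS2 and RPSA, neighbours in the mature particle. RPS2, which lines the mRNA entry channel, had the most reads of all members (chromosome 16, 1962052 to 1964860, minus strand), at 2099, 2205.3 and 2396.3 CPM in shNC and 2935.6, 2878.8 and 3052.2 CPM in shKRT15. The change was 0.40 ± 0.072 on the log2 scale (adjusted p = 0.000215). RPSA, also known as a laminin-binding protein (chromosome 3, 39406689 to 39412542, plus strand), was at 1334.3, 1392.3 and 1518.9 CPM against 1722.9, 1738.2 and 1829.5 CPM, a change of 0.32 ± 0.072 (adjusted p = 0.0016). In both genes the gap between the groups was wider than the range within shKRT15.

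RPS26, which contacts mRNA at the exit side, rose from 189.8, 200.4 and 222.8 CPM to 241.7, 239.9 and 270.4 CPM, a change of 0.29 ± 0.077 (adjusted p = 0.00478). TSR2, its dedicated chaperone, was called higher as well, at a mean of 21.3 ± 3.52 CPM in shNC and 29.5 ± 0.802 CPM in shKRT15 (SD, n = 3 each; log2 fold change 0.47 ± 0.11, adjusted p = 0.00251). RPS16, whose tail reaches the decoding site, was at 409.1, 446.1 and 493.1 CPM against 518.4, 538.4 and 559.1 CPM, a change of 0.26 ± 0.076 (adjusted p = 0.00955). RPS15, needed for export of the small subunit from the nucleus, was at 327.5, 352.1 and 436.9 CPM against 441.7, 428.3 and 458.8 CPM, a change of 0.25 ± 0.090 (adjusted p = 0.0323). It was the only called member whose groups overlapped, through shNC replicate 3, without which its change was 0.38, and it lost its call in 4 of the alternative fits.

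**Figure D3:**
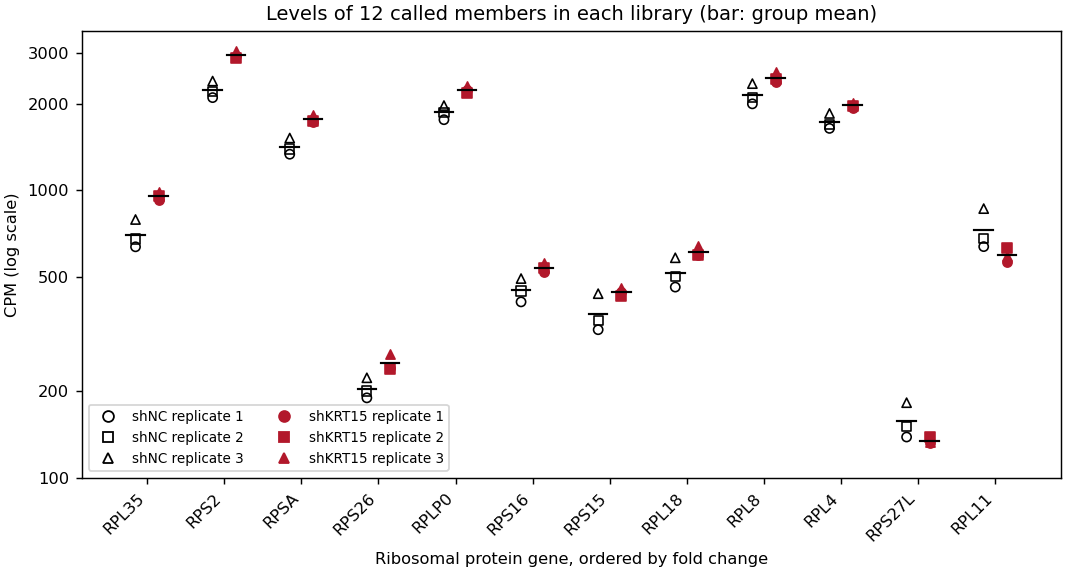
CPM on a log axis of 12 of the 13 called members in each library, with a bar at each group mean and the symbol giving the replicate number. shNC replicate 3 is the highest control for every gene shown; in RPL11 and RPS27L it stands far above the other controls.

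RPL11 and RPS27L fell, and both calls were lost without shNC replicate 3 and in other fits. RPL11 (chromosome 1, 23691742 to 23696835, plus strand) was at 636.8, 680.0 and 863.2 CPM in shNC and 561.9, 632.1 and 590.4 CPM in shKRT15, a fall of 0.29 ± 0.096 on the log2 scale (adjusted p = 0.0219). Without shNC replicate 3 the log2 fold change was -0.15 and the adjusted p 0.065, and the call was lost in 5 of the 18 alternative fits, among them those without shKRT15 replicate 1 (adjusted p = 0.118) or replicate 3 (0.0656) and that with total counts (0.0757). RPL5, which enters the ribosome together with RPL11 and 5S rRNA, was at 636.5, 674.2 and 805.1 CPM against 729.9, 792.2 and 729.8 CPM, with overlapping groups and a log2 fold change of 0.09 ± 0.083 (adjusted p = 0.407). RPS27L (chromosome 15, 63125872 to 63158021, minus strand) was at 138.7, 151.3 and 182.6 CPM against 132.5, 138.3 and 133.7 CPM, a fall of 0.22 ± 0.088 (adjusted p = 0.0461). Without shNC replicate 3 its log2 fold change was -0.11 with an adjusted p of 0.224, and 12 of the 18 fits did not call it, among them those with upper-quartile scaling (adjusted p = 0.0631) and total counts (0.156) that kept all libraries.

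A run of small-subunit genes lay on the low side without passing the test. RPS23, which reaches the decoding centre, was below all controls in every shKRT15 library, at 1068.3, 1104.7 and 1271.3 CPM against 991.4, 1068.2 and 982.3 CPM, a separation of only the last printed digit (log2 fold change -0.18 ± 0.077, adjusted p = 0.0671). RPS27A, made as a fusion with ubiquitin, and RPS25, which helps internal ribosome entry, had log2 fold changes of -0.20 each (adjusted p = 0.0648 and 0.0863). RPS24 and RPS4X were at -0.18 and -0.17 (adjusted p = 0.116 and 0.113). The shNC and shKRT15 values of these 4 overlapped. Without shNC replicate 1 all 5 genes were called lower.

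3 of the most abundant members were not called. RPL7, RPL10 and RPL13A ranked with RPS2 and RPL8 as the 5 members with the most reads, with means of 2445, 2395 and 2175 CPM in shNC and 2413, 2323 and 2247 CPM in shKRT15. Their log2 fold changes were -0.019 ± 0.079, -0.044 ± 0.075 and 0.047 ± 0.074 (adjusted p = 0.869, 0.668 and 0.638), and those of RPL7 and RPL10 turned positive with total-count scaling. After removal of the GC and length trend RPL7 was called higher, at 0.22 (adjusted p = 0.00107). Uncalled members as a whole ranged from -0.20 to 0.41. The highest of these was RPS10, at 2.04, 2.02 and 3.27 CPM against 3.25, 2.38 and 4.13 CPM (0.41 ± 0.27, adjusted p = 0.227), and its groups overlapped.

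Low counts of 3 members need a separate reading. RPL36A, which did not pass the filter, had 2, 1 and 3 reads in shNC and 7, 1 and 2 in shKRT15. RPL17, RPS10 and RPL36A had means of 12.3, 2.45 and 0.056 CPM in shNC, whereas the other tested members ran from 31.4 to 2595 CPM over all libraries. In GENCODE, 81.5%, 77.0% and 37.8% of their exonic bases are also exons of the readthrough genes RPL17-C18orf32, RPS10-NUDT3 and RPL36A-HNRNPH2. The counting rule is not given in the sources used here, so the levels of RPL17, RPS10 and RPL36A may not stand for their mRNA. Further, 77 of the 83 genes have named processed or other pseudogenes in GENCODE, 1145 in all, and reads shared with these could be split or lost.

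The suffixed copies had a smaller share than their relatives in every pair that could be compared. RPL39L (0, 1 and 1 reads in shNC, 0, 0 and 1 in shKRT15) and RPL3L (0, 0 and 4 against 0, 0 and 0 reads) were below the filter, while the relatives RPL39 and RPL3 had means of 623 and 1733 CPM in shNC. Per kilobase of coding sequence in shNC, the level of RPL22 was 2.24 times that of RPL22L1, RPS27 was 5.70 times RPS27L, RPL7 was 14.96 times RPL7L1 and RPL26 was 27.8 times RPL26L1. Per kilobase of coding sequence RPL22L1 was thus the copy nearest to its relative. Reads from untranslated bases may be counted too, so these ratios depend on the length used. The GENCODE transcripts were 2190 bases for RPL22L1 against 2078 for RPL22, and 6434 for RPS27L against 359 for RPS27. They were 3769 for RPL7L1 against 1101 for RPL7, and 695 for RPL26L1 against 763 for RPL26. Of the start windows printed above, those of RPL22, RPL22L1, RPS27 and RPL26 have the pyrimidine run and those of RPS27L and RPL26L1 do not.

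The share of a copy in the reads of its pair separated the groups in 2 of 4 pairs, in opposite directions. RPL22L1, which can take the place of RPL22, made up 30.71%, 30.18% and 28.83% of the pair's reads in shNC and 32.62%, 31.86% and 32.25% in shKRT15 (29.9% ± 0.969 against 32.2% ± 0.380, SD, n = 3 each). RPS27L made up 14.41%, 14.70% and 15.57% against 12.94%, 13.17% and 12.80% (14.9% ± 0.606 against 12.97% ± 0.183). The log2 ratio of copy to relative differed by 0.16 and -0.23 between the groups, each with no overlap and an exact two-sided permutation p of 0.1, the smallest that 3 against 3 allows (0.2 adjusted over the 4 pairs). RPL26L1 had 3.48% ± 0.238 against 3.50% ± 0.0506, and RPL7L1, which acts in ribosome assembly, 6.48% ± 0.898 against 6.07% ± 0.625. Both overlapped, with exact permutation p of 0.8 and 0.5 (0.8 and 0.667 adjusted). Because each share compares genes within 1 library, library scaling does not enter it. As these groups did not overlap, leaving out any 1 library could not turn the direction in RPL22L1 or RPS27L. The trend with GC content and length was not removed from the shares. With it removed, the log2 fold changes were 0.33 for RPL22L1, 0.20 for RPL22, -0.17 for RPS27L and 0.043 for RPS27. With shNC replicate 3 also left out, RPL22L1 was at 0.40, RPL22 at 0.30 and RPS27L at 0.046.

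**Figure D4:**
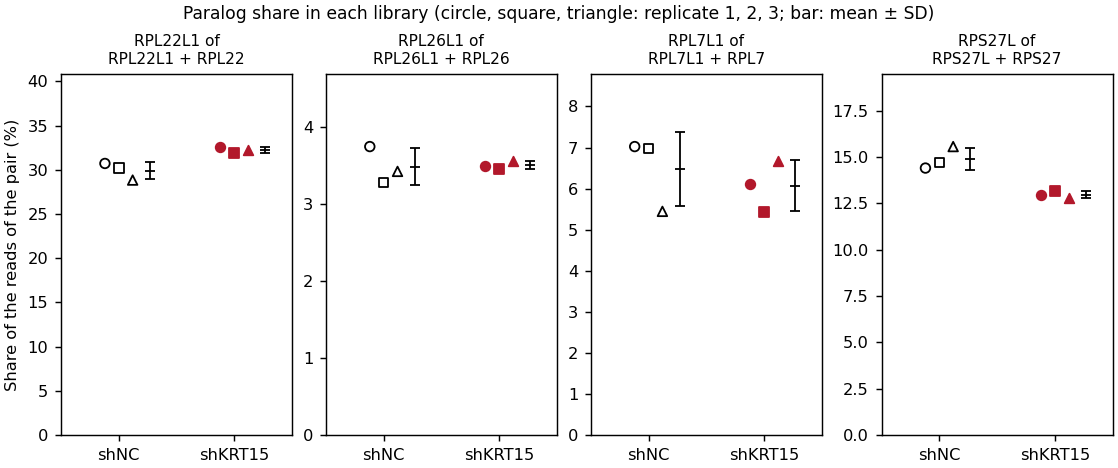
Share of the suffixed copy in the summed reads of copy and relative (percent), for each library of shNC and shKRT15, in the 4 pairs with enough reads. The RPL22L1 share is higher and the RPS27L share lower in all 3 shKRT15 libraries; the other pairs overlap.

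The position of a member on the fold-change scale went with the base composition of its coding sequence. The 18 tested members with a coding GC content of at least 55% had a median log2 fold change of 0.17 and 7 rises. The 50 with 45 to 55% had a median of 0.0075, 4 rises and 1 fall, and the 12 under 45% a median of -0.018, 0 rises and 1 fall. Of all genes tested, whatever their GC content, 22.1% were called higher and 23% lower. Spearman's rho between the log2 fold change and coding GC content was 0.50 over the 80 genes, which share the same 6 libraries, and 0.23 over 12635 other tested genes. Each library's trend over all genes with the GC content and length of the whole transcript, not of the coding sequence, was then removed. This brought the members' rho with coding GC content to 0.041. The median log2 fold change became 0.11 over the members and 0.035 over all genes tested. RPL35, RPS2, RPSA, RPS26, RPLP0 and RPS16 were still called higher then, while RPS27L was not called (adjusted p = 0.469). Whether base composition acts through library preparation or otherwise was not tested.

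**Figure D5:**
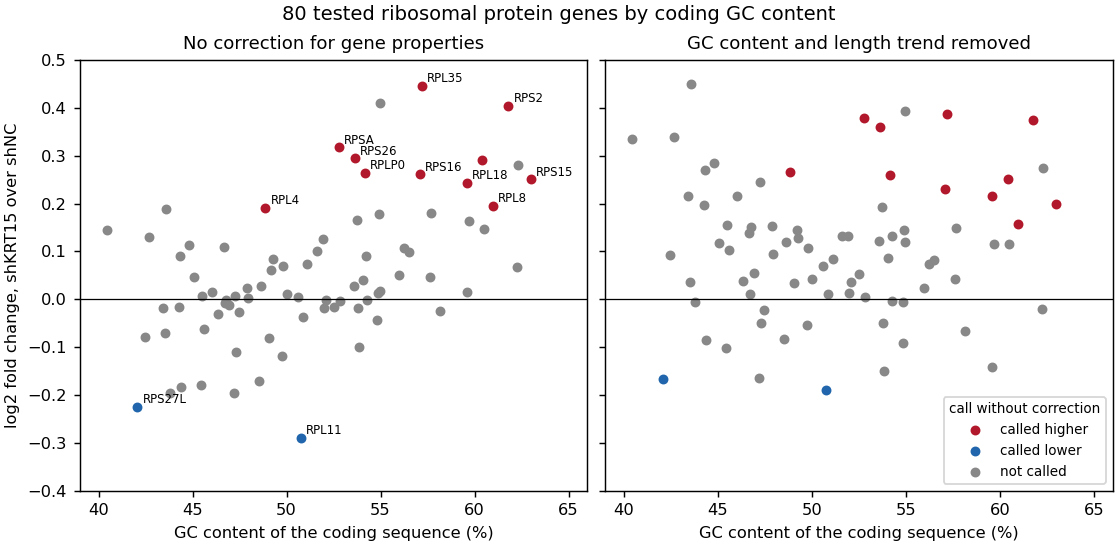
Log2 fold change of the 80 tested members against the GC content of the coding sequence (percent), coloured by the call without correction. Values are as fitted (left) and after removal of each library's trend with transcript GC content and length (right). The members with high GC content lie higher on the left; on the right the slope is gone and the points sit higher as a group.

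Other properties of the genes were set beside the change as well. Spearman's rho with coding length was 0.22, with mean CPM 0.093 and with the number of named pseudogenes -0.012 (80 genes each). The 46 tested members with the start motif had a median log2 fold change of 0.016, with 5 rises and 1 fall, and the 19 in the promoter table without it 0.060, with 3 rises and 1 fall. Over all 80 tested members there were 11 rises (13.8%) and 2 falls (2.5%), beside 22.1% and 23% of all genes tested. Differences between groups of members were not tested. The length of the pyrimidine run had a rho of 0.074 with the change over 46 genes. Within 28 members lie 60 small nucleolar RNA genes, which guide modification of ribosomal RNA, and these hosts had a median of 0.044 against 0.020 in the 52 tested members without one. Members lie on 21 chromosomes, 12 of them on chromosome 19, where the median log2 fold change was 0.17 and 4 rose. Those 12 also had a median coding GC content of 59.6%, above the 51.0% of all tested members, so place and composition cannot be told apart there.

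Of the cytosolic ribosomal proteins that the naming rule leaves out, 1 of 4 was called. RPL36AL, a copy of RPL36A that is well expressed here, was at 111.6, 107.8 and 141.9 CPM in shNC and 78.7, 94.6 and 77.6 CPM in shKRT15, and fell by 0.53 ± 0.10 on the log2 scale (adjusted p = 0.000644). The fall was 0.27 with the trend removed and 0.19 with shNC replicate 3 also left out (adjusted p = 0.00191 and 0.00917). RACK1, a signalling scaffold on the small subunit, had a log2 fold change of 0.13 ± 0.068 (adjusted p = 0.138). FAU, made as a fusion with a ubiquitin-like protein, was at 0.075 ± 0.087 (adjusted p = 0.514).

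Translation genes whose mRNAs carry the same tract moved in both directions. Of 20 tested, 5 rose and 3 fell, with a median log2 fold change of 0.073. The helicase gene EIF4A2 fell by 0.87 ± 0.087 (adjusted p = 4.31e-07), while EIF4B, which stimulates that helicase, rose by 0.41 ± 0.067 (adjusted p = 7.93e-05), and HNRNPA1 rose by 0.40 ± 0.067 (adjusted p = 9.76e-05). Of 17 genes that control such mRNAs or belong to the mTORC1 pathway, 5 rose and 2 fell, with a median of 0.11. The translation repressor gene EIF4EBP2 rose by 0.45 ± 0.089 (adjusted p = 0.000541), the mTOR subunit gene MLST8 by 0.41 ± 0.11 (adjusted p = 0.00516) and the mTORC1 inhibitor gene TSC2 by 0.35 ± 0.097 (adjusted p = 0.00649). After removal of the GC and length trend TSC2 was at 0.16 and not called (adjusted p = 0.0827).

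The factors that build ribosomes likewise split between higher and lower. Of 44 genes listed for small-subunit assembly, 12 rose and 7 fell, with a median log2 fold change of 0.056. FBL, the methyltransferase of box C/D particles, rose by 0.76 ± 0.076 (adjusted p = 3.54e-07). The acetyltransferase gene NAT10 rose by 0.44 ± 0.087 (adjusted p = 0.000533) and the kinase gene RIOK2 fell by 0.56 ± 0.11 (adjusted p = 0.000464). With the trend removed RIOK2 fell by 0.26 (adjusted p = 0.0189), and with shNC replicate 3 also left out it was at -0.16 and not called (adjusted p = 0.137). Of 46 genes listed for large-subunit assembly, 11 rose and 6 fell, with a median of 0.042. The counts by subunit depend on this listing, which places NOP2 with the small and NOC4L with the large subunit. BOP1 rose by 0.54 ± 0.077 (adjusted p = 2.1e-05), DDX54 by 0.39 ± 0.072 (adjusted p = 0.000281) and NOC2L by 0.39 ± 0.077 (adjusted p = 0.000467). With the trend removed the DDX54 value was 0.23, and with shNC replicate 3 also left out the NOC2L value was 0.26. Of 20 genes of RNA polymerase I and its factors, 7 rose and 2 fell, with a median of 0.031. Among them UBTF rose by 0.57 ± 0.078, POLR1E rose by 0.69 ± 0.11 and TAF1D fell by 0.69 ± 0.11 (by 0.41 with the trend removed and shNC replicate 3 left out). Of 16 genes for chaperones and importers of ribosomal proteins or subunit export, 4 rose and 3 fell, with a median of -0.026: the importin gene IPO9 rose by 0.52 ± 0.074 and the export adaptor gene NMD3 fell by 0.58 ± 0.085 (by 0.27 with the trend removed). Across these 6 lists the share called higher ran from 23.9% for large-subunit assembly to 35% for RNA polymerase I, beside 22.1% of all genes tested. The share called lower ran from 10% to 18.8%, beside 23%.

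Genes of the stress response that RPL5 and RPL11 can set off by binding MDM2 leaned to lower values. Of 12 tested, 2 rose (16.7%) and 7 fell (58.3%), beside 22.1% and 23% of all genes, and the median log2 fold change was -0.44. TIGAR, which acts in sugar metabolism, had a mean of 40.4 ± 1.65 CPM in shNC and 18.7 ± 1.18 CPM in shKRT15 (SD, n = 3 each), a fall of 1.11 ± 0.094 (SE; adjusted p = 4.47e-08). SESN2, which restrains mTORC1, fell from 146 ± 5.16 to 86.6 ± 0.915 CPM, by 0.76 ± 0.069 (adjusted p = 1.2e-07). Of 10 tested genes of the MYC family and its partners, 1 rose (10%) and 2 fell (20%), with a median of -0.011. MXD3 rose by 0.99 ± 0.18, MXD1 fell by 0.63 ± 0.12 and MAX fell by 0.23 ± 0.083 (adjusted p = 0.000277, 0.000514 and 0.0334). MYC itself was at -0.10 ± 0.066 and not called (adjusted p = 0.226). The MAX call was lost in 7 of the 18 alternative fits, among them each fit without shNC replicate 2 or 3 or any 1 shKRT15 library, with adjusted p up to 0.0991.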

How the data were processed

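Purified mRNA of 6 cultures was sequenced on an Illumina platform, per the labels' protocols. The authors deposited raw read counts, 1 whole number per gene and library, on GRCh38 per the submitters' processing notes; for the aligner, counter, annotation and strand: not given in the sources used here. Columns were mapped to groups by their names in the labels. No 2 libraries agreed within sampling noise. Genes kept by filterByExpr (minimum count 10, minimum total 15) were tested with the edgeR 4.0.16 quasi-likelihood test (R 4.3.3, robust, TMM scaling, group as the only term), adjusted by Benjamini-Hochberg over 14356 genes and called at 0.05. The members and lists were chosen with earlier results of these data known. Named by rule were the suffixed copies with their relatives, the stalk and 5S particle genes, the 6 largest rises and falls and 5 smallest p-values among called members of at least 1 CPM, the 5 most abundant members, KRT15, and the 3 smallest p-values of each list; the other named members were chosen after their values were seen. Some genes are not reported here. Pair ratios used log2 of reads plus 0.5 with an exact permutation test. GC content and length came from GENCODE release 29 (95.14% of tested genes), and trends with those of the whole transcript were fitted with mgcv 1.9.3. Alternatives were other scalings, filters, DESeq2 1.42.0, limma-voom (limma 3.58.1), a replicate block, protein-coding genes only, trend removal and leaving out each library. The fit was tested on simulated data.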

Additional observations from a re-analysis of the deposited data

How the results depend on the processing

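Counts of called members (11 higher, 2 lower) and their median log2 fold change (0.025) depended on the fit as follows. Called lower were 1 with upper-quartile scaling, TMM without ribosomal and mitochondrial genes, limma-voom or a minimum of 1 CPM in 3 libraries, 4 with no filter and 0 with total counts, where 21 were called higher. Trend removal gave 33 higher, and with shNC replicate 3 also left out, a choice made after seeing the data, 44 higher and 0 lower. Leaving out 1 library gave 7 to 31 higher, 0 to 7 lower and a median of -0.025 to 0.119, negative without shNC replicate 1. The replicate block gave 17 higher and 5 lower; over all genes equal numbers did not pair the libraries (correlation of deviations 0.019, -0.0074 and 0.046), and not every library correlated best with its own number. Over the 80 members alone these correlations were 0.505, 0.108 and 0.263, and every library correlated best with its own number, a hint from the data and not from the design. Small changes turned sign: with total counts RPL22 (0.043), RPL7 (0.042) and RPL10 (0.015); with the trend removed RPL22 (0.20), RPL39 (0.092) and RPL7 (0.22), of which RPL22 and RPL7 were then called higher; with shNC replicate 3 also left out RPL22 (0.30), RPL39 (0.095), RPL7 (0.26), RPS27L (0.046), RPS27A (0.043) and RPS23 (0.013). Leaving out 1 library, the log2 fold change ranged across 0 for RPL26 (-0.025 to 0.143), RPS27 (-0.040 to 0.087), RPLP1 (-0.025 to 0.070), FAU (-0.0041 to 0.20), RPL22 (-0.085 to 0.078), RPL7 (-0.069 to 0.062) and RPL10 (-0.091 to 0.028), as did the log2 ratio of RPL26L1 to RPL26 (-0.033 to 0.066). The cause was not tested. With 3 cultures a group, changes near 0.2 on the log2 scale lay at the limit of what was called.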
